A study of Mus musculus with 12 samples.

Results

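The genes described here are 9 components and targets of the transforming growth factor beta (TGF-beta) pathway among the 14096 genes measured in mouse glomeruli. They were chosen by symbol and comprise the ligands Tgfb1, Tgfb2 and Tgfb3, the receptors Tgfbr1 and Tgfbr2, the signal transducer Smad3, the inhibitory Smad7, and the target genes Fn1 and Ctgf. All 9 are in the deposited tables, each matched by its own symbol. Glomerular mRNA was sequenced in 12 male eNOS-/- mice (4 groups of 3) on a C57BL/6J background, a knockout line for endothelial nitric oxide synthase (eNOS). Con_DMSO mice received citrate buffer and vehicle, and Con_ATG mice received citrate buffer and arctigenin (ATG), a plant lignan. DM_DMSO and DM_ATG mice were made diabetic with streptozotocin (STZ, a toxin of pancreatic beta cells) at 50 mg/kg on each of 5 days at 8 weeks of age, and then received vehicle or ATG. The vehicle was 5% DMSO, the ATG dose was 40 mg/kg per day, and both were given by gavage for 8 weeks from 10 weeks after induction. The mice are called vehicle-treated or ATG-treated and nondiabetic or diabetic below. There was no mouse with intact eNOS, so each effect of diabetes or of ATG was measured on this genotype. The mice of a group are named 1 to 3 in the order of their records, which pairs no mice across groups.

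TGF-beta is secreted in a latent form bound to matrix and, once released, is bound by the type II receptor (Tgfbr2), which recruits and phosphorylates the type I receptor (Tgfbr1). The type I receptor phosphorylates Smad2 and Smad3, which enter the nucleus with Smad4 and switch on target genes. Smad7 is itself induced by the signal and brings ubiquitin ligases to the receptor, so that it acts as a brake, while Ski and Skil (SnoN) hold Smad complexes inactive in the nucleus. In diabetic glomeruli the pathway is known for matrix accumulation in the mesangium, with fibronectin (Fn1) and connective tissue growth factor (Ctgf) among its best known targets.

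The 250 bases upstream of the start site are shown for the ligand Tgfb1 and the receptors Tgfbr1 and Tgfbr2, so that their base composition can be compared. They are from RefSeq (GRCm38.p6), whose promoter table holds Tgfb1, Tgfb2, Tgfbr1, Tgfbr2 and Smad3 of the 9 genes. Capitals mark each match to the Smad-binding element CAGAC or to the GC box GGGCGG on either strand. The windows lie at chr7:25686752-25687001 on the plus strand, chr4:47385966-47386215 on the plus strand and chr9:116175364-116175613 on the minus strand, and each ends at the deposited start of its gene.
Tgfb1: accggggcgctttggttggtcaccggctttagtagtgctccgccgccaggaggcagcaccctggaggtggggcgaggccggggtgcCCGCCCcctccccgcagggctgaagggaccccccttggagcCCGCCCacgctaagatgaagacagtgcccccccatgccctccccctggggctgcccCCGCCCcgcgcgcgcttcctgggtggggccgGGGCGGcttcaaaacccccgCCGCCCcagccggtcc
Tgfbr1: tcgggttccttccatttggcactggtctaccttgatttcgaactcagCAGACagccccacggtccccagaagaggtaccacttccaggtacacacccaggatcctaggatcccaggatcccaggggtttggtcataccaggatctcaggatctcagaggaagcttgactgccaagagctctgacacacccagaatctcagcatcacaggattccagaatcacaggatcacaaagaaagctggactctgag
Tgfbr2: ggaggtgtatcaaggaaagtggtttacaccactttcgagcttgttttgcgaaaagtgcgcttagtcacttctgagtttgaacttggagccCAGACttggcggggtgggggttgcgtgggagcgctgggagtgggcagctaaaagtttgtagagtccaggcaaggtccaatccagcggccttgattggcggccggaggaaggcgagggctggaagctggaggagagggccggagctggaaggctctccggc
The Tgfb1 window was 75.2% G or C, which is above 96.1% of promoter windows, and held 5 GC boxes and no CAGAC. The Tgfbr1 window was 52.8% G or C, near the median of 52.4% over all promoters, and the Tgfbr2 window 58.4%, and each held 1 CAGAC and no GC box. RefSeq holds 2 promoters of Tgfbr1, and only the one at the deposited start is described here. Of the 32536 promoter windows of this length, 42.2% hold CAGAC and 33.0% hold GGGCGG on either strand. The matches describe letters in these windows and were not tested for binding.

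The recovered depth was 23.6 to 29.8 M (mega) reads per mouse over the measured genes. In the libraries, Nos3, the gene that encodes eNOS, had 846 to 2703 reads, summed over the gene and not resolved by exon, so that these reads do not check the knockout. The mean log2 value of 30 glomerular markers (10 each for podocytes, endothelium and mesangium) was 13.17 to 13.25 in vehicle-treated nondiabetic mice, 13.14 to 13.53 in vehicle-treated diabetic mice and 13.31 to 13.43 in ATG-treated diabetic mice. In ATG-treated nondiabetic mice it was 12.15 to 12.91, below every other mouse. The mean of 25 tubule markers was 12.94 to 13.42 in vehicle-treated and 13.57 to 14.20 in ATG-treated nondiabetic mice, and 11.01 to 12.36 in vehicle-treated and 11.76 to 12.35 in ATG-treated diabetic mice. Every nondiabetic mouse was above every diabetic mouse in this mean, and every ATG-treated nondiabetic mouse above every vehicle-treated one. In bulk RNA, fewer cells of a type and less RNA per cell cannot be told apart. The leading number of the library labels differs between the groups, so that anything it stands for and the group cannot be told apart.

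Levels can be compared between genes once divided by the deposited gene length. Ctgf was the highest of the 9 genes in every group, with 11974 ± 1348 units per kb (SD, n = 3; linear scale of the deposited values) in vehicle-treated nondiabetic mice, which is at the 99th percentile of all genes. Tgfbr2 followed with 1698 ± 59.4 units per kb, Tgfb1 with 660.0 ± 72.6, Smad7 with 482.9 ± 31.5, Tgfbr1 with 453.5 ± 16.2 and Smad3 with 335.8 ± 14.0. Fn1 with 119.7 ± 2.04, Tgfb3 with 105.2 ± 20.2 and Tgfb2 with 59.5 ± 4.48 units per kb were the lowest, at percentiles 25.3, 22.8 and 13.1. The ranges over mice of Tgfbr1 and Smad7 overlapped in this group, as did those of Fn1 and Tgfb3, and the other neighbours did not. Tgfb1 was the most abundant ligand in every group. In vehicle-treated diabetic mice Tgfb1 reached 1132 ± 20.5 and Tgfbr1 stood at 315.3 ± 51.8 units per kb.

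Among the ligands, Tgfb1 showed the clearest separation of the groups. Tgfb1 (Entrez 21803, chr7:25687002-25705077, plus strand) encodes the isoform most often studied in kidney fibrosis. Its log2 values were 10.59, 10.29 and 10.56 in vehicle-treated nondiabetic mice and 11.28, 11.24 and 11.28 in vehicle-treated diabetic mice. They were 9.57, 9.95 and 9.99 in ATG-treated nondiabetic mice and 11.05, 11.10 and 11.03 in ATG-treated diabetic mice. No neighbouring groups overlapped in the order vehicle-treated diabetic, ATG-treated diabetic, vehicle-treated nondiabetic and ATG-treated nondiabetic. With diabetes Tgfb1 rose 1.72-fold in vehicle-treated mice (log2 0.78, SE 0.11, adjusted p = 0.00282, limma with Benjamini-Hochberg adjustment over all genes). With ATG it fell 1.56-fold in nondiabetic mice (log2 −0.65, SE 0.11, adjusted p = 0.0121), a call lost without vehicle-treated nondiabetic mouse 1 or 3 (highest adjusted p = 0.0678) and with only the nondiabetic groups fitted (adjusted p = 0.102). Relative to the mean of the glomerular markers, of which 15 of 30 fell in the same mice, it was 0.049 (adjusted p = 0.771). In diabetic mice the difference with ATG was −0.20 on the log2 scale (95% confidence interval −0.45 to 0.037, adjusted p = 1.00), and the 2 groups did not overlap. The rise with diabetes was called with each of the 12 mice left out in turn (log2 0.69 to 0.84), and was 0.72 with adjusted p = 0.0643 when the tubule marker mean entered the fit.

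Tgfb3 (Entrez 21809, chr12:86056743-86079041, minus strand) had log2 values of 8.58, 8.12 and 8.67 in vehicle-treated and 7.01, 7.48 and 7.68 in ATG-treated nondiabetic mice. They were 8.71, 8.91 and 8.68 in vehicle-treated and 8.81, 8.72 and 8.60 in ATG-treated diabetic mice. The ATG-treated nondiabetic mice lay below all others, and the other 3 groups were close. With ATG Tgfb3 fell 2.10-fold in nondiabetic mice (log2 −1.07, SE 0.18, adjusted p = 0.0120), a call likewise lost without vehicle-treated nondiabetic mouse 1 or 3 (highest adjusted p = 0.0667) and with only the nondiabetic groups fitted (adjusted p = 0.0972). It was −0.37 (adjusted p = 0.0966) relative to the glomerular markers. Diabetes raised it 2.50-fold in ATG-treated mice (log2 1.32, SE 0.18, adjusted p = 4.44e-04), a contrast that rests on the same ATG-treated nondiabetic mice and was 0.48 (adjusted p = 0.0388) relative to the glomerular markers. In vehicle-treated mice the difference was 0.31 (SE 0.18, adjusted p = 0.242), and 0.14 without vehicle-treated nondiabetic mouse 2. The groups of this comparison did not overlap, and the difference between the effects of diabetes in the 2 treatments, which equals that between the effects of ATG, was 1.01 (adjusted p = 0.121).

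Tgfb2 (Entrez 21808, chr1:186623186-186705992, minus strand) was the lowest of the ligands and passed the test in no comparison. Its log2 values were 8.13, 8.02 and 8.24 in vehicle-treated and 7.15, 7.29 and 7.94 in ATG-treated nondiabetic mice. In diabetic mice they were 8.47, 8.08 and 8.22 with vehicle and 7.44, 7.86 and 7.92 with ATG. Vehicle- and ATG-treated mice did not overlap in either state, with a difference of −0.67 (SE 0.20, adjusted p = 0.0722) in nondiabetic and −0.51 (SE 0.20, adjusted p = 1.00) in diabetic mice. With 112 to 307 reads per library, Tgfb2 was among the more thinly counted of the 9 genes, and Tgfb3 with 101 to 450 the other.

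In ATG-treated mice Tgfbr1 fell and Tgfbr2 rose with diabetes, and in vehicle-treated mice only Tgfbr1 of the 2 passed the test. Tgfbr1 (Entrez 21812, chr4:47386216-47414924, plus strand), the type I receptor kinase, had log2 values of 11.26, 11.31 and 11.36 in vehicle-treated nondiabetic mice and 10.77, 11.01 and 10.54 in vehicle-treated diabetic mice. They were 11.75, 11.58 and 11.26 in ATG-treated nondiabetic and 10.93, 10.93 and 10.98 in ATG-treated diabetic mice. Every diabetic mouse lay below every nondiabetic mouse, whichever the treatment. Tgfbr1 fell 1.45-fold with diabetes in vehicle-treated mice (log2 −0.54, SE 0.13, adjusted p = 0.0193) and also fell in ATG-treated mice (log2 −0.58, SE 0.13, adjusted p = 0.00464). The call in vehicle-treated mice was lost without vehicle-treated diabetic mouse 1 or without vehicle-treated nondiabetic mouse 2 or 3 (highest adjusted p = 0.0664). With the tubule markers as a covariate the differences were −0.15 (adjusted p = 0.646) and −0.095 (adjusted p = 0.846). Of the tubule markers 18 of 25 fell with diabetes in vehicle-treated mice, and their part in the Tgfbr1 values was not tested.

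Tgfbr2 (Entrez 21813, chr9:116087695-116175363, minus strand), the ligand-binding type II receptor, had log2 values of 13.02, 12.93 and 13.02 in vehicle-treated nondiabetic mice and 13.43, 13.24 and 13.45 in vehicle-treated diabetic mice. They were 12.23, 12.45 and 12.87 in ATG-treated nondiabetic and 13.33, 13.27 and 13.37 in ATG-treated diabetic mice. The diabetic groups overlapped each other and lay above both nondiabetic groups. Tgfbr2 rose 1.75-fold with diabetes in ATG-treated mice (log2 0.81, SE 0.13, adjusted p = 0.00108). In vehicle-treated mice the difference was 0.39 (SE 0.13, adjusted p = 0.0636), and with ATG in nondiabetic mice it was −0.47 (SE 0.13, adjusted p = 0.0618), neither past the threshold. The rise in ATG-treated mice became 0.41 (adjusted p = 0.390) when the tubule marker mean entered the fit and −0.038 (adjusted p = 0.780) relative to the mean of the glomerular markers.

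Smad3 and Smad7, which carry and restrain the signal, passed the test in no comparison. Smad3 (Entrez 17127, chr9:63646767-63757994, minus strand) varied least of the 9 genes between groups. It had log2 values of 10.81, 10.70 and 10.71 in vehicle-treated and 10.66, 10.63 and 10.62 in ATG-treated nondiabetic mice, and 10.90, 10.68 and 10.86 in vehicle-treated and 10.53, 10.53 and 10.68 in ATG-treated diabetic mice. The difference with ATG in diabetic mice was −0.24 (95% confidence interval −0.39 to −0.078, adjusted p = 0.973), and with diabetes in vehicle-treated mice 0.077 (95% confidence interval −0.081 to 0.24, adjusted p = 0.473).

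Smad7 (Entrez 17131, chr18:75367365-75395934, plus strand) had log2 values of 11.11, 11.13 and 10.95 in vehicle-treated and 10.98, 10.87 and 10.93 in ATG-treated nondiabetic mice. In diabetic mice they were 10.64, 11.09 and 10.66 with vehicle and 10.93, 11.52 and 11.51 with ATG. Mice 2 and 3 of the ATG-treated diabetic group were the highest of all 12, while mouse 1 overlapped the vehicle-treated diabetic range. The difference with ATG was 0.52 in diabetic mice (SE 0.16, 95% confidence interval 0.17 to 0.87, adjusted p = 0.973) and −0.14 in nondiabetic mice (SE 0.16, adjusted p = 0.566). The difference between these effects of ATG was 0.66 (SE 0.23, adjusted p = 0.261). By p for ATG in diabetic mice Smad7 ranked 107 of 14096 genes.

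The target genes Fn1 and Ctgf were higher in all 3 vehicle-treated diabetic mice than in any vehicle-treated nondiabetic mouse, without passing the test. Ctgf (Entrez 14219, chr10:24595442-24598682, plus strand) encodes a matricellular protein. Its log2 values were 14.66, 14.77 and 14.98 in vehicle-treated nondiabetic mice and 15.45, 15.58 and 15.54 in vehicle-treated diabetic mice. They were 12.81, 14.10 and 14.16 in ATG-treated nondiabetic and 15.53, 15.48 and 15.23 in ATG-treated diabetic mice. The diabetic groups overlapped, and ATG-treated nondiabetic mouse 1 was far below every other mouse. Diabetes raised Ctgf 3.30-fold in ATG-treated mice (log2 1.72, SE 0.29, adjusted p = 0.00114), while in vehicle-treated mice the difference was 0.72 (SE 0.29, adjusted p = 0.102). With ATG in nondiabetic mice it fell 2.16-fold (log2 −1.11, SE 0.29, adjusted p = 0.0499). That fall was −0.68 without ATG-treated nondiabetic mouse 1, and it was called in 3 of the 12 fits that each left out 1 mouse. With only the nondiabetic groups fitted its adjusted p was 0.129, and relative to the glomerular markers it was −0.42 (adjusted p = 0.0793). Without vehicle-treated nondiabetic mouse 1 or 3, none of the 9 genes was called in this comparison.

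Fn1 (Entrez 14268, chr1:71585473-71653234, minus strand), the gene of fibronectin, had log2 values of 9.87, 9.86 and 9.91 in vehicle-treated and 9.52, 9.65 and 9.64 in ATG-treated nondiabetic mice. In diabetic mice they were 10.15, 10.71 and 10.20 with vehicle and 10.60, 9.82 and 9.97 with ATG. The diabetic groups overlapped widely, with 1 mouse of each far above the others. Fn1 rose 1.44-fold with diabetes in ATG-treated mice (log2 0.53, SE 0.19, adjusted p = 0.0397), which became 0.29 (adjusted p = 0.134) without ATG-treated diabetic mouse 1 and was called in 4 of the 12 fits that each left out 1 mouse. It was 0.88 (adjusted p = 0.248) when the tubule marker mean entered the fit and −0.32 (adjusted p = 0.273) relative to the glomerular markers. In vehicle-treated mice the difference was 0.47 (SE 0.19, adjusted p = 0.0995), and with ATG in diabetic mice −0.23 (95% confidence interval −0.64 to 0.19, adjusted p = 1.00). Without vehicle-treated diabetic mouse 2 these were 0.29 and −0.049, and without ATG-treated diabetic mouse 1 the latter was −0.46.

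**Figure D1:**
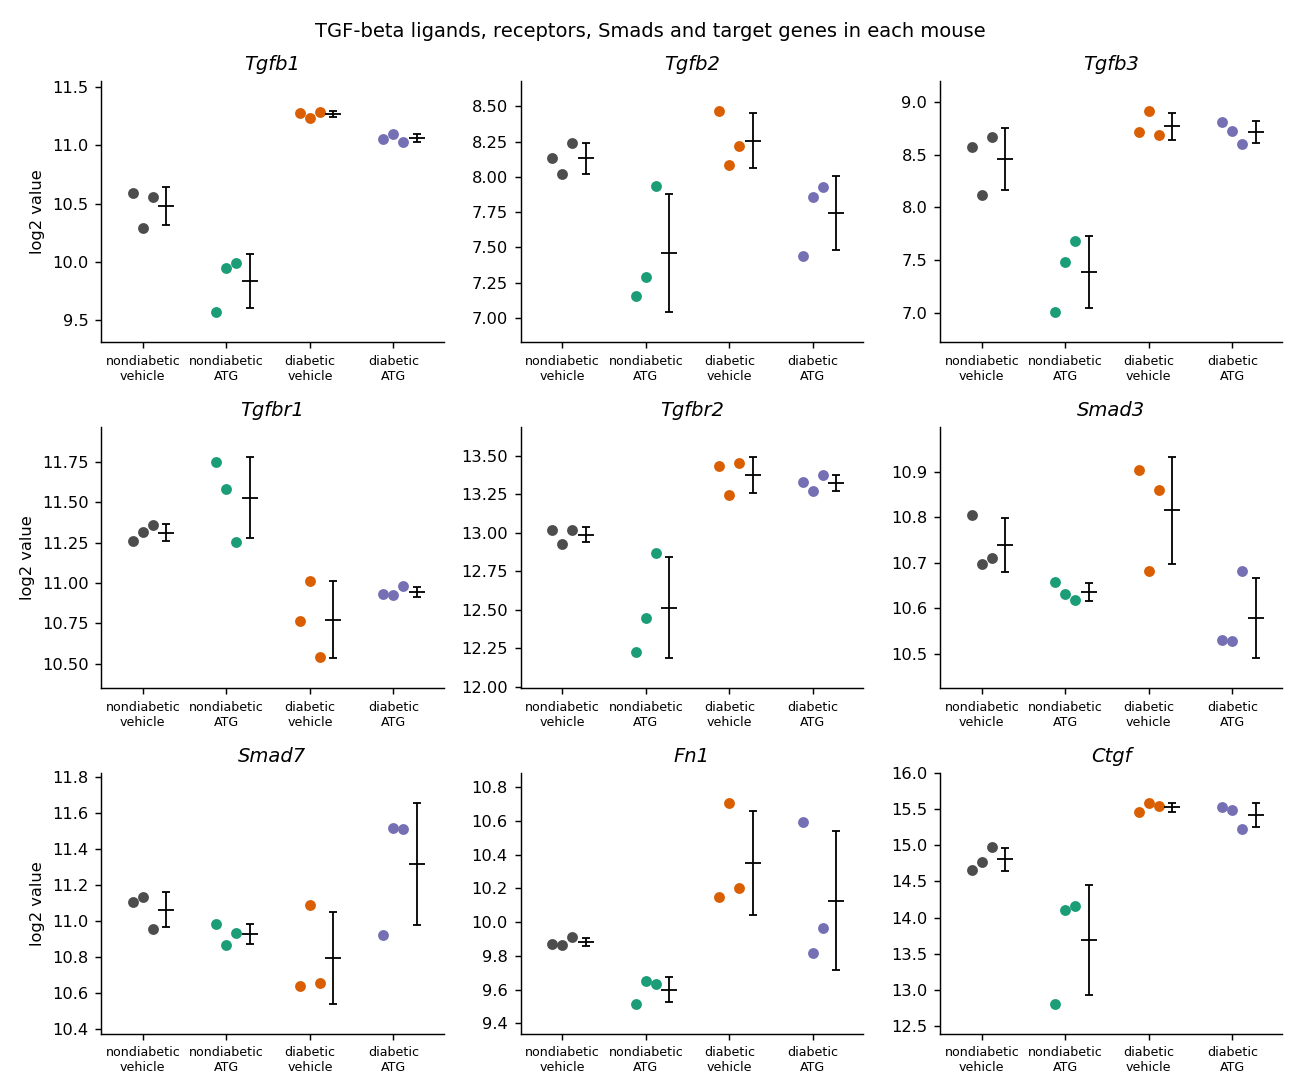
Log2 value (vertical axes, deposited scale) of each of the 9 genes in each mouse (points) of the 4 groups, with the mean and SD of the 3 mice at the right of each group. Tgfb1 lies at 11.24 to 11.28 in vehicle-treated diabetic mice and at 10.29 to 10.59 in vehicle-treated nondiabetic mice, while the Fn1 and Ctgf points of the 2 diabetic groups overlap.

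Counted over the 9 genes, diabetes in vehicle-treated mice raised Tgfb1 and lowered Tgfbr1, which is 2 of 9 beside 18.9% of all genes called (10.2% higher and 8.63% lower). Without overlap between the groups, 5 genes were higher (Tgfb1, Tgfb3, Tgfbr2, Fn1 and Ctgf), beside 23% of all genes, and Tgfbr1 was lower, which makes 6 of 9 beside 41.7%. With ATG in nondiabetic mice Tgfb1, Tgfb3 and Ctgf fell and none rose, beside 4.51% of all genes that fell and 0.709% that rose (5.22% in all). Median-ratio scaling gave 130 higher and 408 lower genes in place of 100 and 636. The number of all genes called went from 60 without vehicle-treated nondiabetic mouse 3 to 3531 without ATG-treated nondiabetic mouse 3, where 6 of the 9 were called. With all 12 mice, 7 genes were lower with ATG in nondiabetic mice without overlap, all but Tgfbr1 and Smad7, beside 20% of all genes. The 2 comparisons share the vehicle-treated nondiabetic mice.

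With ATG in diabetic mice none of the 9 genes passed the test, and none of the 14096 did (0% by limma). At an unadjusted p under 0.05, Tgfb2 and Smad3 were lower and Smad7 was higher, which is 3 of 9 beside 4.51% of all genes, and by limma-voom on recovered reads no member was called. Tgfb1, Tgfb2 and Smad3 were lower in every ATG-treated than in every vehicle-treated diabetic mouse, beside 6.32% of all genes lower without overlap and 3.85% higher. In ATG-treated mice diabetes raised Tgfb1, Tgfb3, Tgfbr2, Fn1 and Ctgf and lowered Tgfbr1, which is 6 of 9 beside 46.7% of all genes (25.9% higher and 20.8% lower). Relative to the glomerular markers Tgfb1, Tgfb3 and Ctgf were still called higher, Tgfbr2 and Fn1 were not called, and Tgfb2 was called lower. That scaling called 194 of all genes higher and 11232 lower. The difference between the effects of ATG in diabetic and nondiabetic mice was called for none of the 9 by limma or limma-voom (5 of 9 at an unadjusted p under 0.05, beside 12.9% of all genes), where by adjusted p the test called 0.546% of all genes (0.539% higher and 0.00709% lower). Its largest value among them was that of Tgfb3 (1.01, SE 0.26, adjusted p = 0.121).

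**Figure D2:**
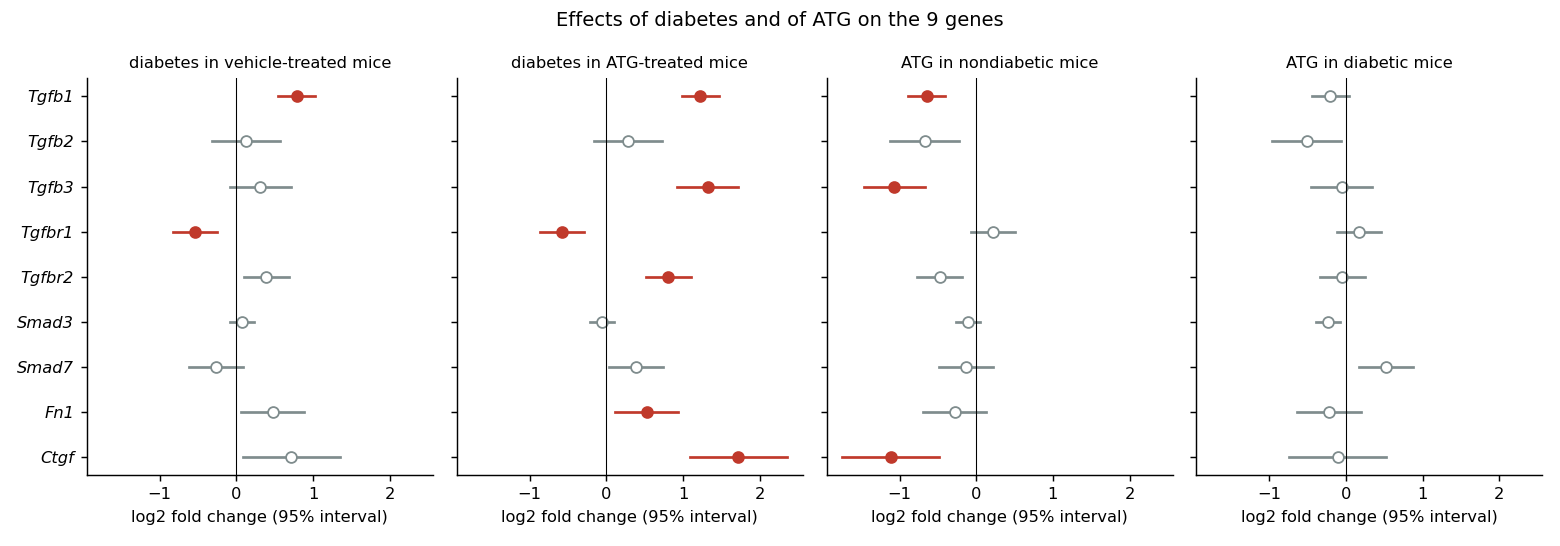
Log2 fold change (horizontal axes) of each of the 9 genes with its 95% confidence interval (lines) in 4 comparisons, filled red where the adjusted p was under 0.05. Diabetes raised Tgfb1 and lowered Tgfbr1 in vehicle-treated mice, 3 genes fell with ATG in nondiabetic mice, and no gene is filled for ATG in diabetic mice.

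The rest of the pathway was described with 7 lists of 105 genes, of which 99 were measured. With diabetes in vehicle-treated mice 17 rose and 5 fell (22.2%, beside 18.9% of all genes), with a median log2 change of 0.075 over the lists and 0.0075 over all genes. The count of 22 became 8 without vehicle-treated diabetic mouse 1 or vehicle-treated nondiabetic mouse 2, 12 and 11 without vehicle-treated nondiabetic mouse 1 and 3, 8 with the tubule covariate and 1 relative to the glomerular markers. Over all genes the same fits called, in this order, 1003, 801, 1262, 1587, 481 and 342, in place of 2659. Of 34 measured profibrotic targets 9 rose, none fell and 25 did not pass (26.5% called, beside 18.9% of all genes called and 10.2% higher). This list is broad, and the 9 include Id1, a target of the BMP branch, and the gelatinase Mmp2. Cdkn1a, a cell cycle inhibitor, rose by 1.74 on the log2 scale (SE 0.26, adjusted p = 0.00375), from 11.23 ± 0.45 to 12.97 ± 0.42 (log2 values, SD, n = 3). Col4a2, a chain of basement membrane collagen IV, rose by 0.76 (SE 0.14, adjusted p = 0.00822), Tgfbi, a TGF-beta-induced matrix protein, by 0.62 (SE 0.12, adjusted p = 0.00992), and Itga5, the alpha chain of the fibronectin receptor, by 0.59 (SE 0.13, adjusted p = 0.0137). Chosen after their values were seen, the interstitial collagens Col1a1 and Col3a1 had differences of −0.0027 (adjusted p = 0.995) and −0.028 (adjusted p = 0.919).

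Upstream of the receptor, 2 of 13 genes of ligand processing and latency rose and none fell (15.4% called, beside 18.9% of all genes). Nrros, which anchors latent TGF-beta1 on macrophages and microglia, rose by 0.96 (SE 0.12, adjusted p = 0.00199). The gene had log2 values of 8.65, 8.82 and 8.42 in vehicle-treated nondiabetic mice and 9.78, 9.52 and 9.47 in vehicle-treated diabetic mice. Of 13 measured leukocyte markers 4 rose with it, their mean log2 value going from a range of 8.69 to 9.35 to one of 9.14 to 9.71, and the part of leukocytes in the Nrros value was not tested. Emilin1, a matrix protein that limits TGF-beta1 maturation, rose by 0.59 (SE 0.14, adjusted p = 0.0197).

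Of 10 measured receptors and co-receptors, Eng (endoglin, a co-receptor of endothelium) rose by 0.70 (SE 0.20, adjusted p = 0.0348). The type I receptors Bmpr1b, by 0.58 (SE 0.11, adjusted p = 0.0094), and Acvr1b, by 0.39 (SE 0.091, adjusted p = 0.0177), were lower. Beside Eng, 4 of 10 glomerular endothelial markers rose and none fell, and 18 of 25 tubule markers fell beside the lower receptors, and their parts in these values were not tested. Of 12 inhibitors, Skil was lower by 0.39 (SE 0.12, adjusted p = 0.0428) and the ubiquitin ligase Nedd4l by 0.61 (SE 0.19, adjusted p = 0.0486), and none rose (16.7% called, beside 18.9% of all genes). Nedd4l turned to 0.14 (adjusted p = 0.689) when the tubule marker mean entered the fit. Smad1, the BMP-responsive Smad, rose by 0.34 (SE 0.093, adjusted p = 0.0277) as the only one of 10 other Smads and partners to pass.

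In the non-Smad branch, 8 genes in all, the p38 kinase activator Map2k3 rose by 0.39 (SE 0.065, adjusted p = 0.00512) and Map2k6, its close relative, fell by 0.54 (SE 0.16, adjusted p = 0.0408). Of 12 BMP and activin ligands and antagonists 3 rose and none fell (25% called, beside 18.9% of all genes). Bmp6 rose by 0.56 (SE 0.071, adjusted p = 0.00211), the stress-induced ligand Gdf15 by 1.79 (SE 0.48, adjusted p = 0.0267), and the secreted glycoprotein Fstl1 by 0.55 (SE 0.14, adjusted p = 0.0236). The Gdf15 values varied widely in vehicle-treated diabetic mice (9.82, 10.63 and 8.25, log2). Over the 12 fits that each left out 1 mouse, the calls of Nrros, Bmpr1b, Map2k3, Bmp6, Cdkn1a, Col4a2 and Tgfbi were kept in all 12. The call of Itga5 was kept in 10, of Emilin1 in 9, of Acvr1b in 8, of Smad1, Fstl1 and Gdf15 in 7, of Eng in 6, of Map2k6 in 5, of Skil in 4 and of Nedd4l in 3. For those not kept in all the highest adjusted p lay between 0.0622 (Itga5) and 0.152 (Skil). When the tubule marker mean entered the fit, Nrros, Bmp6, Cdkn1a, Col4a2 and Gdf15 were called and the others named for this comparison were not. Gdf15 was then 3.66 (adjusted p = 0.0135), Fstl1 0.26 (adjusted p = 0.510), Map2k6 −0.26 (adjusted p = 0.593), Smad1 0.53 (adjusted p = 0.0718) and Emilin1 0.39 (adjusted p = 0.351).

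With ATG in nondiabetic mice, 19 of the 99 genes fell and none rose (19.2%, beside 4.51% of all genes that fell), and the median was −0.26 beside −0.039 over all genes. Profibrotic targets made up 11 of them, of 34. Mmp2, gelatinase A, fell by 1.27 (SE 0.16, adjusted p = 0.00465) and Col5a1, a fibrillar collagen chain, by 0.51 (SE 0.088, adjusted p = 0.0126). Outside the targets, the small proteoglycan Bgn (biglycan) fell by 0.99 (SE 0.11, adjusted p = 0.00318), the co-receptor Eng by 0.80 (SE 0.20, adjusted p = 0.0452), the endothelial type I receptor Acvrl1 by 0.71 (SE 0.15, adjusted p = 0.0242), and Fstl1 by 0.69 (SE 0.14, adjusted p = 0.0242). The microfibril proteins Fbn1 and Ltbp2, which hold latent TGF-beta in matrix or resemble those that do, fell by 0.67 (SE 0.14, adjusted p = 0.0234) and 0.43 (SE 0.097, adjusted p = 0.0336), and the ligand Bmp2 by 0.53 (SE 0.13, adjusted p = 0.0419). Over the fits that each left out 1 mouse, Mmp2 and Bgn were called in all 12, Col5a1 in 10, Fbn1 and Acvrl1 in 9, Fstl1 in 8, Bmp2 in 5, Ltbp2 in 4 and Eng in 2, with a highest adjusted p between 0.0685 (Col5a1) and 0.176 (Eng) where a call was lost. The count of 19 became 2 without vehicle-treated nondiabetic mouse 1 or 3, 5 and 8 without ATG-treated nondiabetic mouse 1 and 2, and 44 without ATG-treated nondiabetic mouse 3. Over all genes the same fits called, in this order, 127, 60, 212, 201 and 3531, in place of 736. With only the 2 nondiabetic groups fitted the pathway count was 0, as was the number over all 14096 genes. Without both unnumbered mice (mouse 1 of each nondiabetic group) it was 1, beside 8 over all genes.

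In the same mice 15 of 30 glomerular markers fell, 9 of them among the 10 of mesangium and 6 among the 10 of endothelium, and none rose. None of the 10 podocyte markers was called, with a mean log2 value of 13.33 to 14.54 beside 14.42 to 14.55 with vehicle. The part of the lower marker levels in the fall of these genes was not tested gene by gene. Set relative to the mean of the glomerular markers in each mouse, a scaling chosen after seeing the data, Tgfb1 differed by 0.049 (adjusted p = 0.771), Tgfb3 by −0.37 (adjusted p = 0.0966) and Ctgf by −0.42 (adjusted p = 0.0793) with ATG in nondiabetic mice. This scaling moves the median of all genes in this comparison to 0.66, with 10797 genes higher and 13 lower. In place of 1442 higher and 1217 lower genes it gave 146 and 196 for diabetes in vehicle-treated mice, and in place of 3649 and 2936 it gave 194 and 11232 for diabetes in ATG-treated mice.

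**Figure D3:**
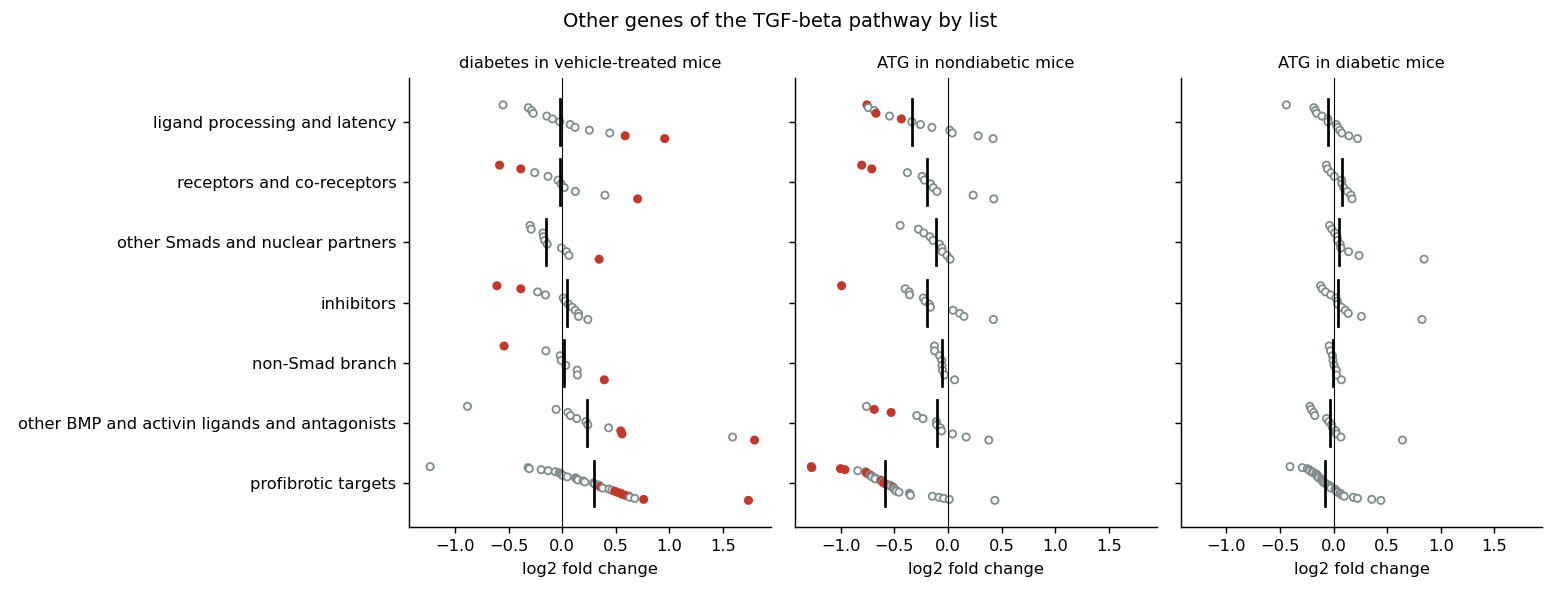
Log2 fold change (horizontal axes) of each measured gene (points) of 7 pathway lists (vertical axis) in 3 comparisons, red where the adjusted p was under 0.05, with a bar at the list's median. Of 34 profibrotic targets 9 rose with diabetes and 11 fell with ATG in nondiabetic mice, and no gene passed with ATG in diabetic mice, where Skil and Smad6 lie at 0.82 and 0.84.

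With ATG in diabetic mice none of the 99 genes passed the test by limma or limma-voom (6 of 99 at an unadjusted p under 0.05), and the median was −0.0056 beside −0.0051 over all genes. The lowest p of all 14096 genes was that of Skil, the Smad corepressor, with a difference of 0.82 (SE 0.12, adjusted p = 0.248). Its log2 values were 10.55, 10.91 and 10.83 in vehicle-treated and 11.70, 11.62 and 11.44 in ATG-treated diabetic mice, which did not overlap. In nondiabetic mice they were 11.02, 11.18 and 11.25 with vehicle and 10.62, 10.78 and 10.97 with ATG. Vehicle-treated diabetic mice were lower than vehicle-treated nondiabetic mice, and ATG-treated diabetic mice higher than all others.

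Smad6, the inhibitory Smad of the BMP branch, ranked 23 by p, with a difference of 0.84 (SE 0.20, adjusted p = 0.804). Log2 values were 11.82, 11.98 and 12.23 in vehicle-treated and 13.03, 12.98 and 12.55 in ATG-treated diabetic mice, and 12.15, 12.07 and 12.34 in vehicle-treated and 11.39, 11.63 and 12.20 in ATG-treated nondiabetic mice. All 3 ATG-treated diabetic mice were above the other 9. Nrros had the next lowest p in the lists, with a difference of −0.44 (SE 0.12, adjusted p = 0.917) and log2 values of 9.16, 9.05 and 9.23 in ATG-treated diabetic mice, below those with vehicle. The mean of 13 leukocyte markers was 8.54 to 9.46 in these mice and 9.14 to 9.71 with vehicle. Skil, Smad6 and Smad7 are genes that respond quickly to their signals, and the mean of 10 immediate early genes, a list added after seeing the data, was 12.11 to 12.38 in ATG-treated and 11.30 to 12.25 in vehicle-treated diabetic mice. It was 12.36 to 13.14 in vehicle-treated and 10.55 to 12.88 in ATG-treated nondiabetic mice, with ATG-treated nondiabetic mouse 1 the lowest, and the part of these genes in the values was not tested.

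**Figure D4:**
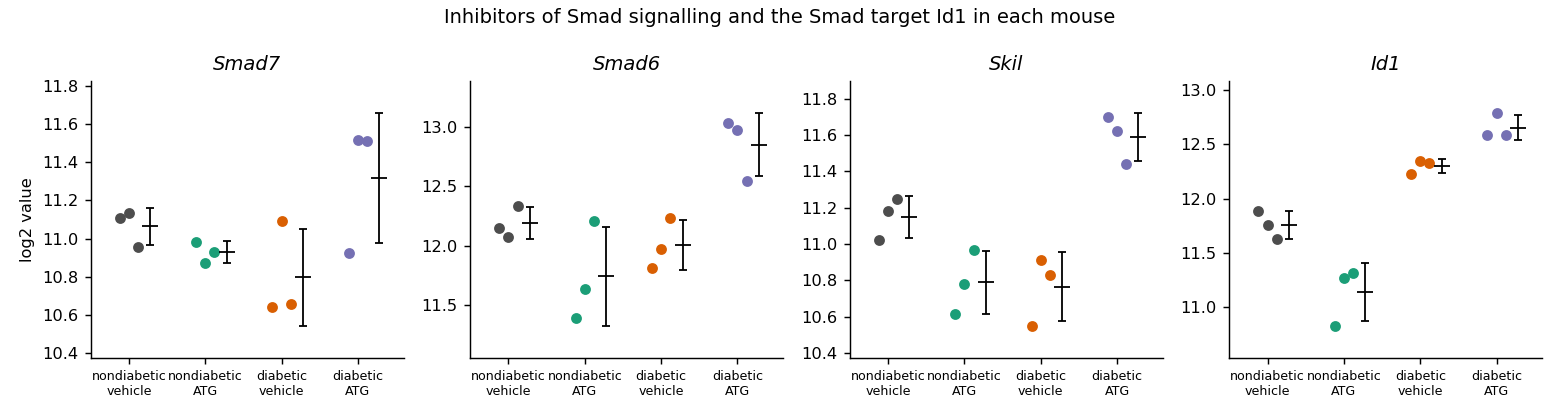
Log2 value (vertical axes) of Smad7, Smad6, Skil and Id1 in each mouse (points) of the 4 groups, with the mean and SD of the 3 mice. Skil lies at 11.44 to 11.70 in ATG-treated diabetic mice and at 10.55 to 10.91 in vehicle-treated diabetic mice, whereas Smad7 overlaps between them.

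The difference between the effects of ATG in diabetic and in nondiabetic mice was called for 3 of the 99 genes, all positive (3.03%, beside 0.539% of all genes). The count became 0 without vehicle-treated nondiabetic mouse 1 or 3, vehicle-treated diabetic mouse 1, ATG-treated nondiabetic mouse 2 or any ATG-treated diabetic mouse, 1 without vehicle-treated diabetic mouse 2, and 16 without ATG-treated nondiabetic mouse 3. The last of these fits called 770 of all genes, in place of 77. For Skil the difference was 1.19 (SE 0.17, adjusted p = 0.0251), for Bgn 0.92 (SE 0.16, adjusted p = 0.0455) and for Id1, a direct Smad target of the BMP branch, 0.98 (SE 0.17, adjusted p = 0.0455). Id1 had log2 values of 11.88, 11.75 and 11.63 in vehicle-treated and 10.83, 11.27 and 11.31 in ATG-treated nondiabetic mice. In diabetic mice they were 12.23, 12.35 and 12.33 with vehicle and 12.59, 12.79 and 12.58 with ATG. None of the 4 groups overlapped, and ATG-treated mice were the lowest among nondiabetic and the highest among diabetic mice. In ATG-treated mice diabetes raised 51 and lowered 7 of the 99 genes (58.6%, beside 46.7% of all genes). Id1 rose by 1.52 (SE 0.12, adjusted p = 5.42e-05), Mmp2 by 1.63 (SE 0.16, adjusted p = 1.10e-04) and Smad6 by 1.11 (SE 0.20, adjusted p = 0.00162). Relative to the glomerular markers Id1 was 0.67 (adjusted p = 0.00170), Mmp2 0.79 (adjusted p = 0.00338) and Smad6 0.26 (adjusted p = 0.145), and Smad6 was 0.67 (adjusted p = 0.382) with the tubule covariate. Of the glomerular markers 21 of 30 rose and of the tubule markers 23 of 25 fell in this comparison, and their part in it was not tested.

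When the tubule marker mean entered the fit, none of the 9 genes was called for diabetes in either treatment or for ATG in nondiabetic mice. Of all genes that fit called 481 and 93 for diabetes with vehicle and with ATG, in place of 2659 and 6585. It called 50 for ATG in nondiabetic mice, in place of 736. The Tgfb1 differences were then 0.72 (adjusted p = 0.0643), 1.15 (adjusted p = 0.0542) and −0.61 (adjusted p = 0.0774), near their values without the covariate. With it, Tgfb3 was 1.35 (adjusted p = 0.115) and Ctgf 1.604 (adjusted p = 0.193) for diabetes in ATG-treated mice, and −1.08 (adjusted p = 0.0697) and −1.07 (adjusted p = 0.220) for ATG in nondiabetic mice, also near their values without it. Relative to the glomerular markers, Tgfb1 rose by 0.67 with diabetes in vehicle-treated mice (adjusted p = 0.0389) and by 0.38 in ATG-treated mice (adjusted p = 0.034). Ctgf had a difference of 0.60 (adjusted p = 0.147) in the first and rose by 0.88 (adjusted p = 0.00217) in the second.

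**Figure D5:**
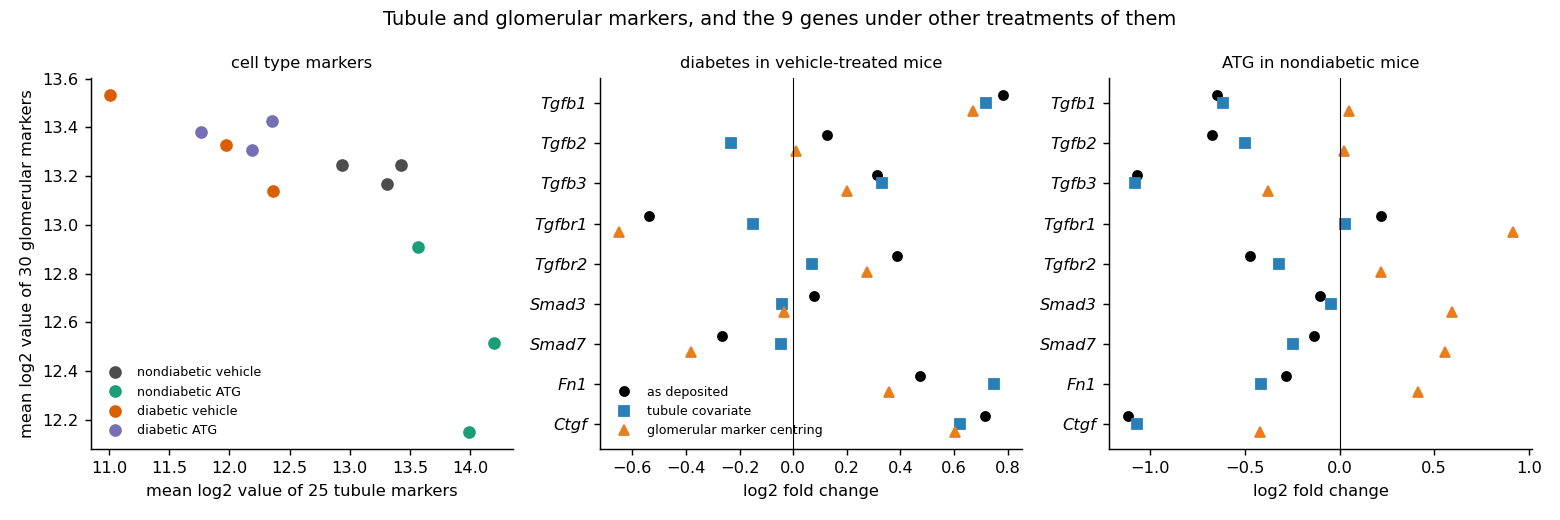
Left, the mean log2 value of 25 tubule markers (horizontal) and of 30 glomerular markers (vertical) in each mouse, coloured by group. Middle and right, log2 fold changes of the 9 genes as deposited (circles), with the tubule markers as a covariate (squares) and relative to the glomerular markers (triangles). Tgfb1 stays between 0.67 and 0.78 for diabetes in vehicle-treated mice, and moves from −0.65 to 0.049 for ATG in nondiabetic mice relative to the glomerular markers.

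Across the 12 mice, Pearson's r between the 36 pairs of the 9 genes ranged from −0.94 (Tgfbr1 and Tgfbr2) to 0.95, as a description over libraries that share groups and tissue content. For deviations from the group means it was −0.85 for Tgfbr1 and Tgfbr2. By r of log2 values over the 12 mice, Tgfb3 was most like Bgn (0.987) and Mmp2 (0.987), Ctgf most like Acvrl1 (0.986), Tgfbr2 like Tmbim1 (0.994) and Fstl1 (0.993), and Fn1 like Grem1 (0.967), the gene of the BMP antagonist gremlin. Tgfb1 was most like Prkcdbp (0.994), Tgfbr1 like Pgap1 (0.994), Tgfb2 like Fam181b (0.94), Smad3 like Tnfsf10 (0.861) and Smad7 like Mpp7 (0.851).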

How the data were processed

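Glomerular poly-A mRNA of 12 mice was sequenced by the study's provider. For each of 14096 genes and each mouse, the authors deposited a log2 value. The submitters' processing notes name mm10 and limma, and an aligner and counting program are not given in the sources used here. On the linear scale 83.5 to 84.1% of values under 2000 were whole multiples of 1 step per mouse (within 0.02 reads), so they are scaled reads, not divided by length. A label protocol also describes cell sorting, which the study's methods do not.

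limma 3.58.1 (R 4.3.3) was fitted to the log2 values of all 12 mice as 4 group means with a mean-variance trend. Genes were called where the p, adjusted by Benjamini-Hochberg across all of them, was under 0.05. The 9 genes and the lists were chosen with earlier results of these data known, and pathway genes are named by lowest p per list and direction (up to 4 for diabetes with vehicle, up to 2 otherwise, or the 3 lowest where none passed). Missing from the tables were Acvr1c, Foxh1, Tgif2, Inhba, Timp1 and Mmp9. The variance between 2 mice of a group was 12.0 to 123 times that of counting reads alone, and all tests use the spread between mice. Alternatives were a low-value filter, only the compared groups, a replicate block, each mouse left out, both mice with unnumbered labels left out, median-ratio scaling, no trend, a tubule covariate, limma-voom, a pseudocount of 10, an adjusted p under 0.1 and, after seeing the data, glomerular marker centring. Figures used matplotlib 3.10.9.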

Additional observations from a re-analysis of the deposited data

Results flagged for a closer look

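Of the genes named, 3 responded to ATG differently in diabetic and nondiabetic mice by the test of the difference itself (limma, adjusted over all genes). Skil differed with ATG by 0.82 in diabetic mice (adjusted p = 0.248) and by −0.36 in nondiabetic mice, a difference of 1.19 on the log2 scale (adjusted p = 0.0251). Bgn differed by −0.076 in diabetic mice and fell by 0.99 in nondiabetic mice, a difference of 0.92 (adjusted p = 0.0455). Id1 differed by 0.36 in diabetic mice and fell by 0.62 in nondiabetic mice, a difference of 0.98 (adjusted p = 0.0455). Relative to the glomerular markers the differences were 0.45 (adjusted p = 0.125), 0.18 (adjusted p = 0.489) and 0.24 (adjusted p = 0.316). Over the fits that each left out 1 mouse, Skil was called in 5 of 12 (1.08 to 1.28, highest adjusted p = 0.0978), Bgn in 3 (0.80 to 0.99, highest adjusted p = 0.140) and Id1 in 3 (0.82 to 1.06, highest adjusted p = 0.141).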

How the results depend on the processing

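The counts of the 9 genes and of the 99 pathway genes stayed within 1.5 times under the low-value filter, median-ratio scaling, limma-voom and the pseudocount, and so did those without a trend except for the difference of the ATG effects, where 1 pathway gene was called instead of 3. ATG in diabetic mice gave 0 calls under every setting run. For diabetes in vehicle-treated mice, 2 of the 9 genes and 22 pathway genes were called. The 9 gave 4 calls with only the groups compared, 4 at an adjusted p under 0.1, 0 with the tubule covariate and 1 with glomerular marker centring, and the pathway genes gave 8 with the covariate and 1 with centring. For ATG in nondiabetic mice, 3 and 19 were called. These became 0 and 0 with only the groups compared, 0 and 1 without both unnumbered mice, 0 and 3 with the covariate, and 5 and 37 at an adjusted p under 0.1, while centring gave 46 pathway calls, 45 of them higher. Centring also called 10797 of all genes higher. Among the 9 it ended the calls of Tgfb1, Tgfb3 and Ctgf. Tgfbr1 (0.91, adjusted p = 0.0110), Smad3 and Smad7 were then called higher. Diabetes in ATG-treated mice gave 0 and 6 with the covariate instead of 6 and 58, beside 93 of all genes instead of 6585. For the difference of the ATG effects, 3 pathway genes became 0 without both unnumbered mice, 6 at an adjusted p under 0.1 and 0 with centring.

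Mice with the same replicate number in the library label are different animals. Of 13 same-number pairs 5 had deviations correlated above 0.1 (r from −0.59 to 0.34). Whether the number marks a shared batch was not tested. With the number as a replicate block, diabetes in vehicle-treated mice gave 1 and 14 calls and the difference of the ATG effects 1 pathway call, and the other counts stayed within 1.5 times.

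With 1 mouse left out at a time, the 9 genes gave 1 to 4 calls for diabetes in vehicle-treated mice, 0 to 6 for ATG in nondiabetic mice and 0 to 2 for the difference. The pathway genes gave 8 to 28, 2 to 44 and 0 to 16. The lowest values for ATG in nondiabetic mice came without vehicle-treated nondiabetic mouse 1 or 3, and the highest without ATG-treated nondiabetic mouse 3, which also gave the 16. The 8 for diabetes came without vehicle-treated diabetic mouse 1 or vehicle-treated nondiabetic mouse 2. Differences that were not called changed sign for Tgfb3 with ATG in diabetic mice (−0.11 to 0.014) and, for the difference of the ATG effects, for Tgfbr1 (−0.18 to 0.074, and 0.091 without both unnumbered mice) and Fn1 (−0.18 to 0.23).

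The tubule covariate turned the sign, none past the threshold, for diabetes in vehicle-treated mice of Tgfb2 (−0.23), Smad3 (−0.042) and Nedd4l (0.14). It did so for diabetes in ATG-treated mice of Tgfb2 (−0.17), Nedd4l (0.23), Tgif1 (0.057) and Map3k7 (−0.037), for Tgfbr2 with ATG in diabetic mice (0.018) and for Tgfbr1 in the difference (0.054). Glomerular marker centring moves the median of all genes to −0.11 for diabetes in vehicle-treated mice, 0.66 for ATG in nondiabetic mice, −0.79 for diabetes in ATG-treated mice and −0.72 for the difference, so signs turn by its construction. For ATG in nondiabetic mice it gave Tgfb1 0.049, Tgfb2 0.022, Tgfbr2 0.22, Smad3 0.59, Smad7 0.56, Fn1 0.41, Fbn1 0.024, Ltbp2 0.26, Fstl1 0.0076, Bmp2 0.16 and Col5a1 0.18. For diabetes in ATG-treated mice it gave Tgfb2 −0.56, Tgfbr2 −0.038, Smad7 −0.46, Fn1 −0.32, Smad1 −0.30, Skil −0.048, Map2k3 −0.33, Map3k7 −0.65 and Bmp6 −0.36. Of these turned values, Smad3 (adjusted p = 0.0128) and Smad7 (adjusted p = 0.0477) passed the threshold for ATG in nondiabetic mice, and Tgfb2 (adjusted p = 0.0124) and Map3k7 (adjusted p = 0.00363) for diabetes in ATG-treated mice. For the difference it gave Tgfb1 −0.29, Tgfb2 −0.58, Tgfbr2 −0.31, Smad7 −0.078 and Fn1 −0.68, and for Smad3 with diabetes in vehicle-treated mice −0.036. The causes of the other changes were not tested. Over all genes, median-ratio scaling gave 130 higher and 408 lower calls for ATG in nondiabetic mice, against 100 and 636 as deposited.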
